A study of Saccharomyces cerevisiae with 18 samples.

Results

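Transcript levels at high glucose were compared between a yeast strain whose Snf1 kinase lacks its activation site (T210A) and the reference strain (Snf1). The comparison used 6 of the 18 arrays of the study, 3 from T210A and 3 from Snf1. Each of 5449 measured genes was represented by its probe set of highest mean signal, and the 261 genes of chromosome VIII (systematic names beginning YHL or YHR) were described apart from the 5188 genes of the other chromosomes. The question is how the strains differ while glucose is still plentiful.

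All strains were Saccharomyces cerevisiae snf1Δ mutants that carried a plasmid. The plasmid encoded HA-Snf1 in the reference strain, and in the T210A strain it encoded HA-T210A, the native kinase with threonine 210 replaced by alanine. Cultures grew aerobically in 1 L bioreactors at 30 °C and pH 5.0 from 40 g/L glucose, and the high-glucose samples held 15 to 20 g/L. The arrays of T210A and Snf1 at 5 g/L glucose, and of another strain, Alpha1, show below where the high-glucose values stand. Alpha1 carried an AMPK catalytic domain fused to the regulatory domain of Snf1. All 18 arrays also entered the choice of probe sets and the fit, so the spread within every group enters each SE and p-value. The labels do not say whether a strain was 1 clone, which background it had or which marker the plasmid carried.

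Snf1 is the yeast member of the AMP-activated protein kinase family. When glucose runs low, upstream kinases phosphorylate its activation loop, and the active kinase relieves glucose repression of genes for other carbon sources, partly by inactivating the repressor Mig1. On abundant glucose the kinase is largely kept inactive by dephosphorylation. Separately, yeast strains can gain or lose whole chromosomes, and an additional chromosome copy raises the transcripts of most of its genes together.

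The values are log2 signals, and arrays of the same group correlated across genes at 0.995 to 0.998. A gene's 3 arrays had a median SD of 0.109 in T210A and 0.108 in Snf1. The SNF1 probe set read 7.14, 7.31 and 7.06 in Snf1 and 7.05, 7.25 and 6.93 in T210A (difference -0.10 ± 0.13). This probe set reads plasmid transcripts too and cannot see a point mutation, so it checks neither the deletion nor the replaced residue. All 4 alpha-cell marker genes had signals of 9.20 to 12.41 on the 6 arrays and all 5 a-cell marker genes signals of 2.52 to 4.72, and none of the 9 was called, so the strains had the markers of the same mating type. Differences below are T210A minus Snf1 on the log2 scale ± SE, with n = 3 arrays per group. The SE come from 1 limma fit of all 18 arrays, not from the 6 compared arrays alone. Calls were made at adjusted p-values under 0.05 (Benjamini-Hochberg over 5449 genes).

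At high glucose 228 genes were called (4.18% of all genes), and most of them lay on chromosome VIII. Of the 261 genes, 181 were higher in T210A (69.3%) and 0 were lower, against 3.56% called higher and 0.624% called lower over all genes. The median difference on chromosome VIII was 0.74, or 1.67-fold, and 248 of the 261 differences were positive (95.0%). On the other chromosomes the median was -0.02, 41.4% of the differences were positive, and 13 genes were higher and 34 lower. Chromosome VIII, with 4.79% of the measured genes, held 93.3% of the genes called higher. The arrays measured RNA, DNA was not analysed here, and more chromosome copies and higher transcription cannot be told apart.

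The shift was nearly equal on each T210A array. The median over chromosome VIII genes, after subtraction of the median over all other genes, was 0.75, 0.76 and 0.72 in T210A replicates 1, 2 and 3, each gene being set against its mean over the Snf1 arrays. The same measure was between -0.01 and 0.00 on the 3 Snf1 arrays, whose average lies near 0 by construction because they formed that mean. The difference in means of 0.75 had an exact two-sided permutation p of 0.1, which is the smallest that 3 arrays against 3 allow. Because the Snf1 arrays served as the reference, that p adds no support. Over the other 15 chromosomes the medians of single T210A arrays stayed between -0.06 and 0.03.

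**Figure D1:**
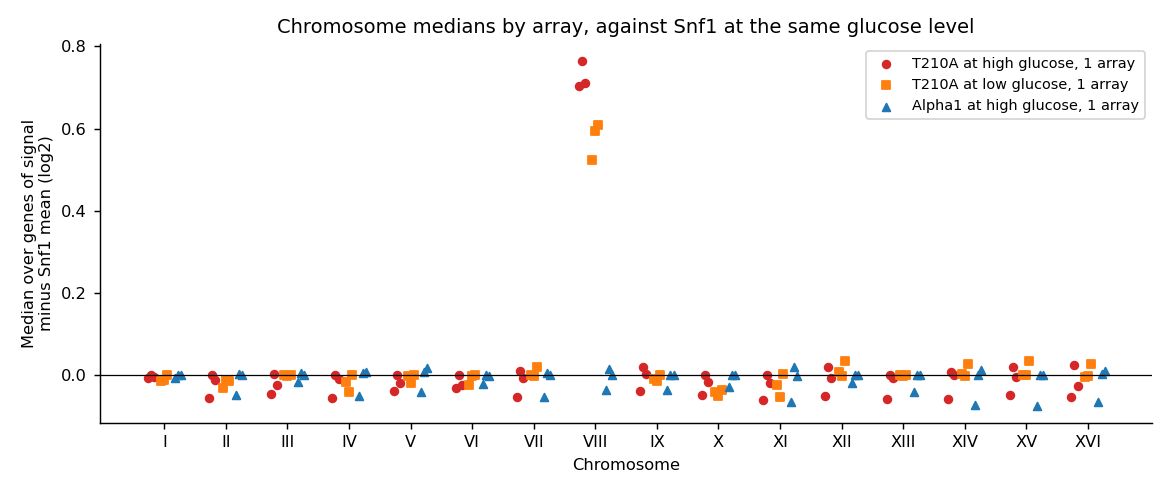
Median, over the genes of each of the 16 chromosomes, of the log2 signal minus the mean of the 3 Snf1 arrays at the same glucose level; each point is 1 array. Chromosome VIII stands near 0.7 to 0.76 on the 3 T210A arrays at high glucose and between 0.52 and 0.61 at low glucose, while the Alpha1 arrays at high glucose and all other chromosomes lie near 0.

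Both chromosome arms carried the shift. The left arm had a median difference of 0.76 over 45 genes, of which 27 were higher, and the right arm 0.73 over 216 genes, of which 154 were higher. When the genes were taken in order in 10 windows of 26 or 27, the window medians ran from 0.61 to 0.82. The lowest window was the right end of the chromosome, from CTF8 to IMD2, where 7 of 26 genes had mean signals under 3.25. The line of 3.25 used here lies 1 log2 unit over the mean of the arrays' lowest signals and is called the floor line. Among genes above that line the window medians ran from 0.66, again at the right end, to 0.85.

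**Figure D2:**
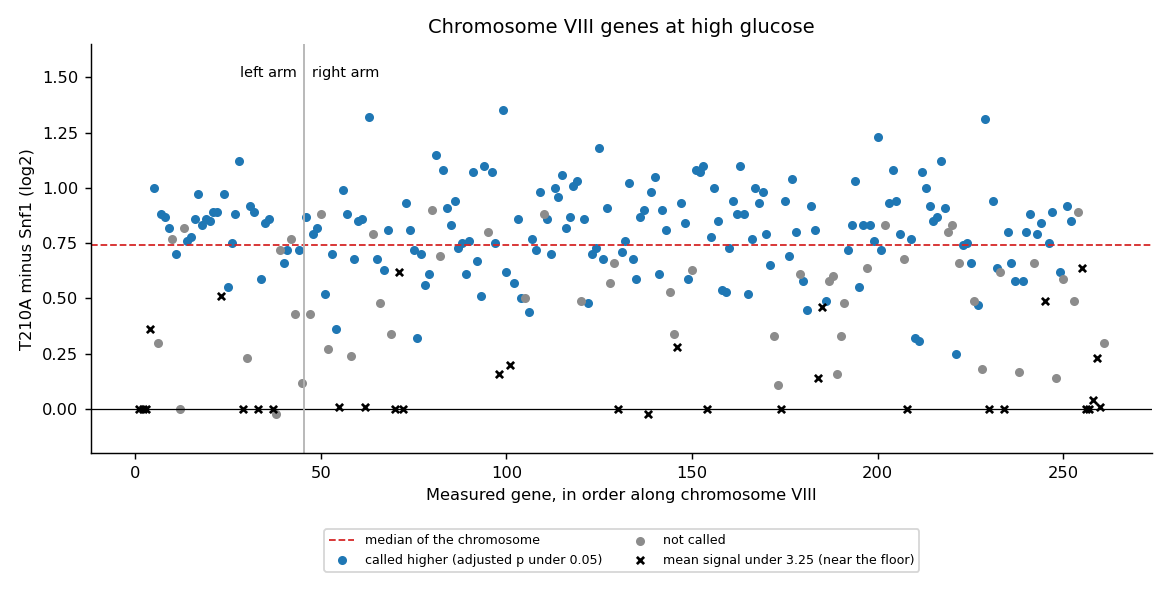
Difference T210A minus Snf1 at high glucose (log2) for the 261 measured chromosome VIII genes in their order along the chromosome; the dashed line is the median of 0.74 and the vertical line divides the arms. Blue points are genes called higher, grey points are not called, and crosses are the 32 genes with mean signals under 3.25 (4 of them called), many of which lie at 0. The points fill a band on both arms without a visible step.

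Of the 261 differences 122 lay between 0.6 and 0.9, and the 10th and 90th percentiles were 0.14 and 1.00. Of the chromosome's genes 75.1% exceeded a difference of 0.5, against 0.289% of the genes elsewhere. In 231 of the 261 genes all 3 T210A arrays lay above all 3 Snf1 arrays, where 9.84% of all genes showed that separation; in 0 did all 3 lie below, against 9.01% of all genes. Of the 80 genes not called, 28 were under the floor line and 52 above it, and in 43 of those 52 the groups did not overlap.

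The difference depended on the signal. The 32 genes under the floor line had a median difference of 0.00, and 4 of them were called. Medians were 0.83, 0.85 and 0.79 for genes with mean signals of 3.25 to 5, 5 to 7 and 7 to 9, then 0.68 for 9 to 11. It was 0.29 for the 20 genes with signals of 11 or more, of which 8 were called. On the other chromosomes the medians of the same ranges were between -0.03 and 0.00. Of the 20 bright genes 7 encode cytosolic ribosomal proteins (median 0.16), and the remaining 13 had a median of 0.36. What part the bright end of the signal range plays was not tested.

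**Figure D3:**
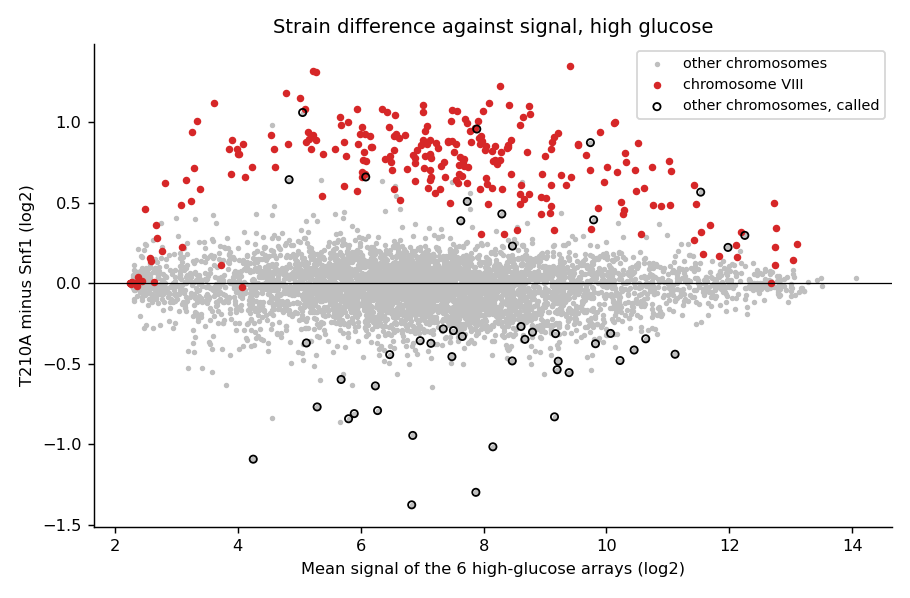
Difference T210A minus Snf1 at high glucose (log2) against the mean signal of the 6 arrays (log2), 1 point per gene; red points are chromosome VIII genes, grey points all others, and circles mark the 47 called genes of other chromosomes. Chromosome VIII genes form a band near 0.8 that drops toward 0 at both ends of the signal range.

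FSH1, which encodes a serine hydrolase, had the largest difference of the chromosome. Its signals were 8.67, 8.73 and 8.78 in Snf1 and 10.06, 10.01 and 10.16 in T210A, with every T210A array above every Snf1 array. T210A was 2.55-fold higher (1.35 ± 0.14, adjusted p = 4.92e-05). MIP6, an RNA-binding protein gene, read 4.53, 4.62 and 4.56 in Snf1 and 5.74, 5.89 and 6.03 in T210A (1.32 ± 0.07, adjusted p = 6.51e-07). SPO12, a regulator of mitotic exit and meiosis, read 7.61, 7.60 and 7.73 in Snf1 and 8.92, 8.71 and 8.99 in T210A (1.23 ± 0.11, adjusted p = 1.6e-05). The groups of these 3 genes stand more than 1 log2 unit apart on average, and none of them overlap. The largest called differences without overlap were chosen, so both traits follow from the choice. The meiotic gene SSP1 (1.31 ± 0.19), the methylesterase gene PPE1 (1.18 ± 0.18), the replication-fork helicase gene RRM3 (1.15 ± 0.15), the urea transporter gene DUR3 (1.12 ± 0.18) and the actin-patch gene BZZ1 (1.10 ± 0.12) were the others of the 10 largest, with DOG2 and, described next, DBP8. All 3 Snf1 arrays of DUR3 (3.17, 3.14 and 2.86) lay under the floor line. DOG2, a sugar phosphatase gene represented by 1 of its 2 probe sets and with a close copy, DOG1, on the same chromosome, differed by 1.10 ± 0.23 (adjusted p = 0.0126), and its call ended without Snf1 array 1 (0.0553) or T210A array 3 (0.0674).

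Ribosome assembly factors, which process precursor rRNA and build the subunits in the nucleolus, had 13 members on chromosome VIII. Of these 12 were higher and 1, RIX1, was not (0.66 ± 0.18, adjusted p = 0.0669), with a median of 0.88. Of the 109 members elsewhere 0 were called, with a median of 0.07 and 90 positive differences. Over all genes, 69.3% were called on chromosome VIII and 0.906% elsewhere, where 41.4% of the differences were positive. The helicase gene DBP8 read 7.39, 7.42 and 7.77 in Snf1 and 8.56, 8.62 and 8.75 in T210A (1.12 ± 0.13, adjusted p = 1.03e-04). The large-subunit factor genes SSF1 (1.06 ± 0.14) and RPF1 (1.05 ± 0.13) and the exosome gene RRP4 (1.01 ± 0.11) were also about 2-fold higher, and NOP10, a component of the pseudouridylation particles, had the smallest difference (0.48 ± 0.11).

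Both proteasome genes of chromosome VIII were higher, as were 69.3% of all genes of that chromosome. RPN1, a scaffold subunit of the regulatory particle, read 10.12, 10.14 and 10.08 in Snf1 and 10.83, 10.84 and 10.78 in T210A (0.70 ± 0.06, adjusted p = 1.6e-05). RPN10, the ubiquitin receptor, differed by 0.75 ± 0.08. None of the 32 other proteasome genes was called (median 0.01). Of the vacuolar proton pump, the subunit genes VMA10 (0.76 ± 0.15) and VMA16 (0.32 ± 0.05) and the assembly factor gene VMA22 (0.98 ± 0.10) were higher. None of 14 members elsewhere was called (median -0.01), where 0.906% of all genes were. VMA10 lost its call where only the compared groups were fitted (adjusted p = 0.116), and VMA16 in the fit of the compared groups alone with the replicate number as a block (adjusted p = 0.0581).

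The next 2 lists also stand beside shares of 69.3% called over all chromosome VIII genes and 0.906% over all genes elsewhere. Of the ergosterol pathway, which makes the main sterol of the yeast membrane, all 4 genes on chromosome VIII were higher and 0 of 24 elsewhere were called (medians 0.65 and -0.08). They were the lanosterol synthase gene ERG7 (0.86 ± 0.15), the squalene synthase gene ERG9 (0.80 ± 0.17), the P450 reductase gene NCP1 (0.51 ± 0.12) and the lanosterol demethylase gene ERG11 (0.36 ± 0.08). Omission of Snf1 array 1, Snf1 array 3 or T210A array 2 ended the calls of ERG9, NCP1 and ERG11 (adjusted p of 0.0519 to 0.107), as did T210A array 1 for NCP1 (0.0586) and T210A array 3 for ERG11 (0.0566). In the pheromone pathway the G protein gene GPA1 (0.52 ± 0.07), the kinase gene STE20 (0.66 ± 0.12) and the transcription factor gene STE12 (0.59 ± 0.08) were higher, against 0 of 38 members elsewhere (median -0.03); STE20 lost its call where only the compared groups were fitted (adjusted p = 0.0563).

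Members of the other lists on chromosome VIII were called in part, where 69.3% of all genes of that chromosome were called. SOD2, mitochondrial superoxide dismutase, read 9.52, 9.67 and 9.68 in Snf1 and 10.54, 10.56 and 10.75 in T210A (0.99 ± 0.11, adjusted p = 1.11e-04). GRE3, an aldose reductase gene, differed by 1.10 ± 0.14, and the homoserine kinase gene THR1 by 0.72 ± 0.07. Also higher were MUP3, a methionine permease gene (0.82 ± 0.12), PUT2 of proline breakdown (0.73 ± 0.14), PRS3 of phosphoribosyl pyrophosphate synthesis (0.59 ± 0.08), COX6 of cytochrome c oxidase (0.57 ± 0.09) and INM1, an inositol monophosphatase gene (1.07 ± 0.17). Of the 4 amino acid synthesis genes there 2 were called, while ARG4 (0.48 ± 0.13, adjusted p = 0.0538) and BAT1 (0.49 ± 0.15, adjusted p = 0.109) were not, and neither was QCR10 of the respiratory chain (0.43 ± 0.14, adjusted p = 0.152). Of 4 metal uptake and metal-binding genes 1, the metallothionein gene CUP1-1, was called (0.50 ± 0.13, adjusted p = 0.0448). That call ended on the omission of any of the 6 arrays (0.068 to 0.193). RTC3 (0.98 ± 0.25, adjusted p = 0.0409) rested on few arrays, since its call ended without Snf1 array 1 or 2 or T210A array 2 or 3 (0.11 to 0.193), and also with the replicate block in the compared groups alone (0.0867).

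Some chromosome VIII genes stood off the common shift. To find them, each array's median over chromosome VIII genes, and over all other genes, was subtracted before the fit. Then 1.19% of all genes were called (0.257% higher, 0.936% lower), and 36 of these lay on chromosome VIII. Only MIP6 lay above the shift (0.56 ± 0.08). Of the 35 below it, 26 had mean signals under the floor line, where a shift could not be read, for example PTH1 and ANS1, which read 2.26 on all 6 arrays. The centred fit called 65 genes in all, but 31 where genes with mean signals under 5 were left out.

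Of the 9 genes below the shift with signals above the floor line, 7 had mean signals of 10 or more. RPL8A, a gene for a large-subunit ribosomal protein, was represented by 1 of its 2 probe sets. It read 12.62, 12.74 and 12.65 in Snf1 and 12.67, 12.77 and 12.58 in T210A, and the groups overlapped (0.00 ± 0.08 before centring). RPS4B of the small subunit differed by 0.14 ± 0.05 and was not called. The glycolytic enolase gene ENO2 differed by 0.25 ± 0.05, VMA16 by 0.32 ± 0.05 and ERG11 by 0.36 ± 0.08, and all 3 were called in the uncentred fit. The ENO2 call ended with the replicate block in the compared groups alone (adjusted p = 0.0726) and without Snf1 array 2 or 3 or T210A array 1 or 3 (0.0636 to 0.0905). SOL3 and MPC2, at 0.31 ± 0.07 and 0.32 ± 0.06, complete the bright genes, and the dim ones were YHL009W-B (-0.02 ± 0.09) and NDT80 (0.11 ± 0.12); these 4 were chosen after their values were seen. RPL8A, RPS4B and ENO2 have close copies on other chromosomes, and how far their probes read both copies is uncertain. None of the 7 ribosomal protein genes of chromosome VIII was called, against 69.3% of all genes there, and their median was 0.16. Of the 120 elsewhere, with a median of 0.00, 0 were called, against 0.906% of all genes elsewhere.

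None of the 3 hexose transporter genes on chromosome VIII was called, against 69.3% of all genes there. HXT1, a low-affinity transporter gene induced by high glucose, read 9.58, 9.58 and 9.56 in Snf1 and 9.87, 9.89 and 9.97 in T210A (0.34 ± 0.21, adjusted p = 0.724). The groups did not overlap, and HXT1 was called where only the compared groups were fitted (0.01, or 0.0381 with the replicate block). HXT4 differed by 0.53 ± 0.16 (adjusted p = 0.0865). GUT1, the glycerol kinase gene, differed by 0.82 ± 0.25 without a call (adjusted p = 0.105).

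On the other chromosomes 47 genes were called, 0.906% of those measured there, and most were lower in T210A. Every T210A array carried the chromosome VIII shift and no Snf1 array did. For these genes, effects of the replaced residue and of that shift therefore cannot be told apart. The count depended on single arrays: it was 28 without Snf1 array 1, and 30, 27 and 29 without T210A array 1, 2 and 3. With the replicate number as a block it was 101 (21 higher, 80 lower) over all 18 arrays and 219 (51 higher, 168 lower) in the compared groups alone. Without the chromosome VIII genes in the fit and adjustment it was 18 (7 higher, 11 lower), all among the 47, and with array weights it was 353. The calls of SIT1 (adjusted p = 0.0572), BAP2, FLO9 and URA3 (each 0.0788), ATO2 (0.0923), CHO2 (0.101), HXT2 (0.111), HSP42 (0.144), IMG2 (0.186), GNP1 (0.22) and TMA10 (0.223) ended without the chromosome VIII genes. Where only the compared groups were fitted, the calls of HOR7 (adjusted p = 0.0569), CHO2 (0.0792), IMG2 (0.0816) and URA3 (0.0883) ended. That fit also ended those of FLO9 (0.102), GNP1 (0.125), BAP2 (0.132) and TMA10 (0.202). On chromosome VIII it ended those of ENO2 (0.0762), NCP1 (0.0914) and RTC3 (0.12) as well. Genes named as lower or higher below were called on the omission of each array and with both replicate blocks unless it is said otherwise.

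The genes with the largest differences were again named only where the groups did not overlap, so that separation is no added support. ATO3, a transporter gene of the acetate and ammonium export family, read 8.37, 8.75 and 8.45 in Snf1 and 7.18, 7.36 and 7.13 in T210A. It was 2.46-fold lower (-1.30 ± 0.22, adjusted p = 0.00281). Its relative ATO2 was lower by a similar amount (-1.09 ± 0.23, adjusted p = 0.0137), but that call ended without Snf1 array 2 (0.0511), Snf1 array 3 (0.0522) or T210A array 1 (0.0757). SUL1, a high-affinity sulfate permease gene, read 9.51, 9.65 and 9.54 in Snf1 and 8.78, 8.85 and 8.59 in T210A, again without overlap (-0.83 ± 0.08, adjusted p = 3.57e-05). SUL1 was the only call among 30 sulfate and methionine genes (median -0.01), where 0.906% of all genes elsewhere were called. The siderophore transporter gene SIT1 was lower by 0.94 (-0.94 ± 0.19, adjusted p = 0.00786), as was YLR152C (-0.84 ± 0.11).

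Of the 21 amino acid permease genes outside chromosome VIII, 3 were lower and 0 higher, with a median of -0.16 and 16 negative differences. Of all genes elsewhere 0.655% were lower, 0.251% higher and 58.6% negative, with a median of -0.02. DIP5, a permease gene for glutamate and aspartate, read 8.74, 8.75 and 8.49 in Snf1 and 7.54, 7.76 and 7.63 in T210A (-1.01 ± 0.14, adjusted p = 5.69e-04). BAP2, for branched-chain amino acids, read 6.58, 6.43 and 5.89 in Snf1 and 5.43, 5.64 and 5.40 in T210A, so that the lowest Snf1 array came close to the T210A arrays (-0.81 ± 0.17, adjusted p = 0.0118). The call of BAP2 ended without Snf1 array 1 or 2 or T210A array 1 or 3 (0.0503 to 0.068) and with the replicate block in the compared groups alone (0.0889). GNP1, for glutamine, was at -0.54 ± 0.14 (adjusted p = 0.0451) and lost its call on the omission of any array but Snf1 array 3 (0.0729 to 0.209).

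Among hexose transporters elsewhere only HXT2 was called, of 14 genes, 8 of which were under the floor line. Of all genes elsewhere 0.906% were called. HXT2 encodes a high-affinity carrier that is repressed by high glucose. It read 7.56, 7.74 and 7.25 in Snf1 and 6.06, 6.30 and 6.07 in T210A, a 2.59-fold lower mean with no overlap (-1.38 ± 0.31, adjusted p = 0.017). The adjusted p ran from 5.43e-06 to 0.111 over the alternatives, and the call ended without Snf1 array 1 (0.068), Snf1 array 2 (0.0772), T210A array 1 (0.0705) or T210A array 3 (0.0702).

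Of 24 inositol and phospholipid genes outside chromosome VIII, 3 were lower and 0 higher, with a median of -0.14 and 19 negative differences; of all genes elsewhere 0.655% were lower, 0.251% higher and 58.6% negative. All 3 encode steps from serine to phosphatidylcholine. CHO1, phosphatidylserine synthase, read 9.63, 9.74 and 9.64 in Snf1 and 9.16, 9.15 and 9.04 in T210A (-0.55 ± 0.09, adjusted p = 0.00155). The methyltransferase genes OPI3 (-0.44 ± 0.07, adjusted p = 9.94e-04; chosen after its values were seen) and CHO2 (-0.48 ± 0.10, adjusted p = 0.0154) were lower as well, and CHO2 lost its call without Snf1 array 1 or 2 or T210A array 3 (0.0737 to 0.0856). On chromosome VIII the gene of the repressor of this pathway, OPI1, read 8.26, 8.43 and 8.24 in Snf1 and 8.78, 8.95 and 8.85 in T210A (0.55 ± 0.12, adjusted p = 0.0114). The OPI1 call ended without Snf1 array 1 (0.0553), Snf1 array 3 (0.0541) or T210A array 2 (0.0625). INO1, the inositol synthase gene of the same regulon, read 3.76, 3.96 and 3.84 in Snf1 and 3.20, 3.55 and 3.17 in T210A, with 2 of the 3 T210A arrays under the floor line. Its difference of -0.55 ± 0.24 was not called (adjusted p = 0.405), but was with the replicate block in the compared groups alone (0.0461).

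**Figure D4:**
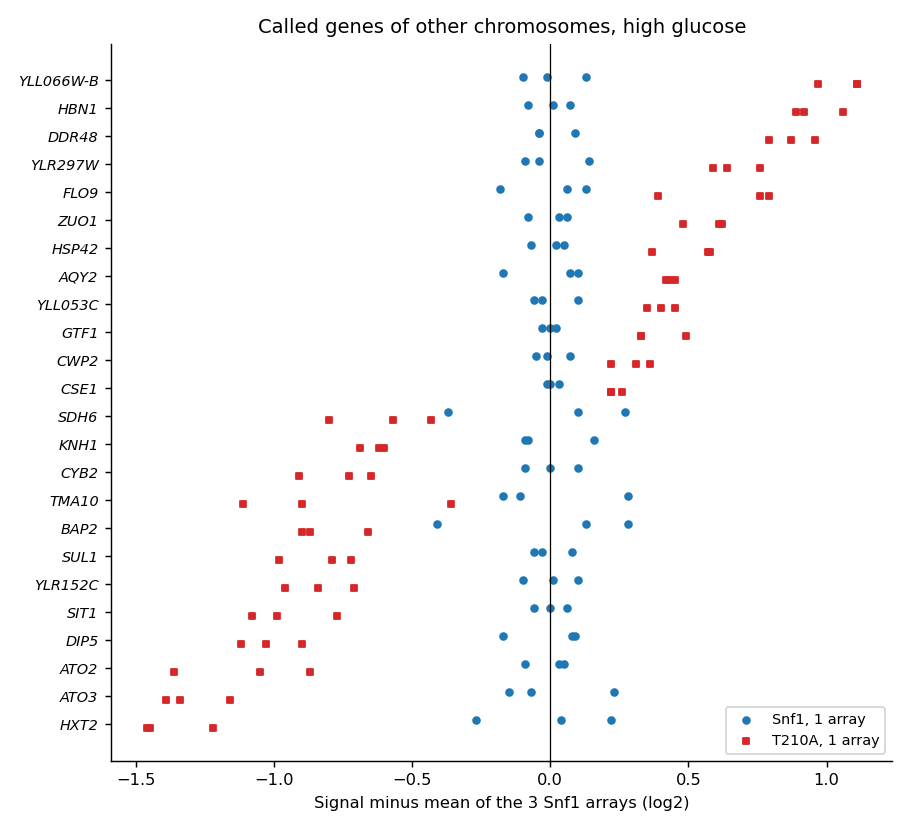
Signal on each of the 6 high-glucose arrays minus the mean of the 3 Snf1 arrays (log2) for genes of other chromosomes, namely the 12 called with the largest positive and the 12 with the largest negative differences; circles are Snf1 and squares T210A. In all 24 genes the groups do not overlap, as the choice of genes required.

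Of 40 general stress genes outside chromosome VIII, 3 were higher (HSP42, DDR48 and HOR7, the last chosen after its values were seen) and 1 lower (TMA10), with a median of 0.09, against 0.251% higher and 0.655% lower over all genes elsewhere. HOR7 (0.22 ± 0.05, adjusted p = 0.0203) lost its call on the omission of any array but Snf1 array 2 (0.0566 to 0.0993) and with the replicate block in the compared groups alone (0.084). DDR48, a hydrophilin gene induced by DNA damage and heat, read 9.26, 9.26 and 9.39 in Snf1 and 10.09, 10.17 and 10.26 in T210A, 1.83-fold higher (0.87 ± 0.08, adjusted p = 1.71e-05). The small heat shock protein gene HSP42 was at 0.51 ± 0.12 (adjusted p = 0.0234), and omission of any array but T210A array 1 ended that call (0.0543 to 0.111). TMA10 was at -0.79 ± 0.21 (adjusted p = 0.0485), and its call ended without any array but T210A array 3 (0.0667 to 0.241) and with the replicate block in the compared groups alone (0.194). None of 28 heat shock and folding genes was called (median 0.05).

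ZUO1, a ribosome-associated chaperone gene, read 11.17, 11.31 and 11.28 in Snf1 and 11.87, 11.86 and 11.73 in T210A, without overlap (0.57 ± 0.08, adjusted p = 3.44e-04). HBN1, a nitroreductase-like gene, was higher by 0.96 ± 0.11 (adjusted p = 1e-04). GTF1, for the mitochondrial glutamyl-tRNA amidotransferase, was higher by 0.39 ± 0.07. YLL066W-B, in the repeated ends of chromosomes, was at 1.06 ± 0.17, but it has 3 probe sets, and their mean was not called (adjusted p = 0.0704). FLO9, a flocculin gene with close relatives, was at 0.64 ± 0.13 (adjusted p = 0.0119), a call that ended without Snf1 array 1 or T210A array 2 or 3 (0.0635 to 0.0695).

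Few of the genes nearest to Snf1 itself were called at high glucose, where 0.906% of all genes outside chromosome VIII were. None of 19 genes of the kinase complex and its regulators was called, which does not set them apart from that share. Their differences ran from -0.43 to 0.25, with a median of -0.01 and a lowest adjusted p of 0.123. MIG1, the repressor gene, read 5.98, 6.30 and 5.89 in Snf1 and 5.97, 6.28 and 5.88 in T210A. Of 29 glucose-repressed carbon genes outside chromosome VIII only CYB2, the lactate dehydrogenase gene of mitochondria, was called. CYB2 read 5.58, 5.77 and 5.67 in Snf1 and 4.76, 5.02 and 4.94 in T210A (-0.77 ± 0.10, adjusted p = 3.52e-04). The invertase gene SUC2 (-0.21 ± 0.37), the hexokinase gene HXK1 (-0.25 ± 0.27) and the lactate permease gene JEN1 (-0.33 ± 0.38) were not called. Of the 29 differences 23 were negative, against 58.6% of those of all genes elsewhere. ADH2 and the gluconeogenic gene FBP1 were under the floor line in both strains. ACC1, whose product is a Snf1 substrate, differed by -0.02 ± 0.06.

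Of 67 mitochondrial ribosomal protein genes elsewhere 65 differences were negative, with a median of -0.17, against 58.6% negative, a median of -0.02 and 0.655% called lower over all genes elsewhere, but only IMG2 was called (-0.27 ± 0.07, adjusted p = 0.0309). The IMG2 call ended without Snf1 array 2 or 3 or T210A array 1 or 2 (0.0895 to 0.153) and with the replicate block in the compared groups alone (0.058). Both chromosome VIII genes of this group lay above 0, MRPL6 at 0.55 ± 0.12 (adjusted p = 0.0126) and MRP4 at 0.77 ± 0.20 (adjusted p = 0.0514). MRPL6 lost its call without Snf1 array 1 or 2 or T210A array 3 (0.0545 to 0.0595). URA3, a pyrimidine synthesis gene often used as a plasmid marker, was at -0.34 ± 0.07 (adjusted p = 0.0114); its call ended without Snf1 array 3 (0.0607) or T210A array 2 (0.0685).

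The same measurements on the low-glucose arrays show whether the chromosome VIII shift recurred in other cultures or samples of the strain. On the 3 T210A arrays at low glucose the median of chromosome VIII minus that of the other genes was 0.52, 0.60 and 0.61. In Snf1, whose arrays again formed the reference mean, it was -0.01 to 0.01. The median difference was 0.57, or 1.49-fold, with 172 genes higher (65.9%) and 13 lower (4.98%), where 29.7% and 26.5% of all genes were called. Of the 181 genes higher at high glucose, 133 were also higher at low glucose and 9 were lower. The strains differed far more at low glucose, where 55.5% of the genes on other chromosomes were called, so single chromosome VIII genes scattered widely (10th and 90th percentiles -0.05 and 2.01).

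The change of the strain difference between the glucose levels was tested as an interaction. It was called for 39.5% of all genes and for 116 chromosome VIII genes (44.4%), a share near that background, with 60 larger and 56 smaller at low glucose and a median change of 0.02. All 13 ribosome assembly genes of chromosome VIII had larger differences at low glucose (1.70 to 3.14, median 2.51), and 104 of 109 elsewhere did so too (median 1.55). The gap between the medians of the 13 and of the 109 was 0.81 at high and 0.96 at low glucose. DBP8 at low glucose read 3.65, 4.12 and 3.90 in Snf1 and 6.99, 6.91 and 7.18 in T210A, a change of 2.02 ± 0.18 (adjusted p = 2.07e-06). INM1 went from 1.07 to 4.65 (change 3.58 ± 0.24).

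Other chromosome VIII genes lost the difference or turned it. RPN1 at low glucose read 9.95, 10.09 and 10.02 in Snf1 and 9.99, 10.14 and 9.96 in T210A, with overlapping groups (0.01 ± 0.06; change -0.69 ± 0.09, adjusted p = 3.83e-05). ARO9, an aromatic aminotransferase gene, lay at the floor in Snf1 at high glucose, at 2.26 on all 3 arrays, and at 2.63, 2.81 and 2.72 in T210A. At low glucose it read 5.71, 5.91 and 5.90 in Snf1 and had a mean of 3.26 (SD 0.23) in T210A, so that T210A was the lower strain (-2.58 ± 0.10; change -3.04 ± 0.14). The high-glucose call of ARO9 ended without T210A array 2 (adjusted p = 0.0718).

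**Figure D5:**
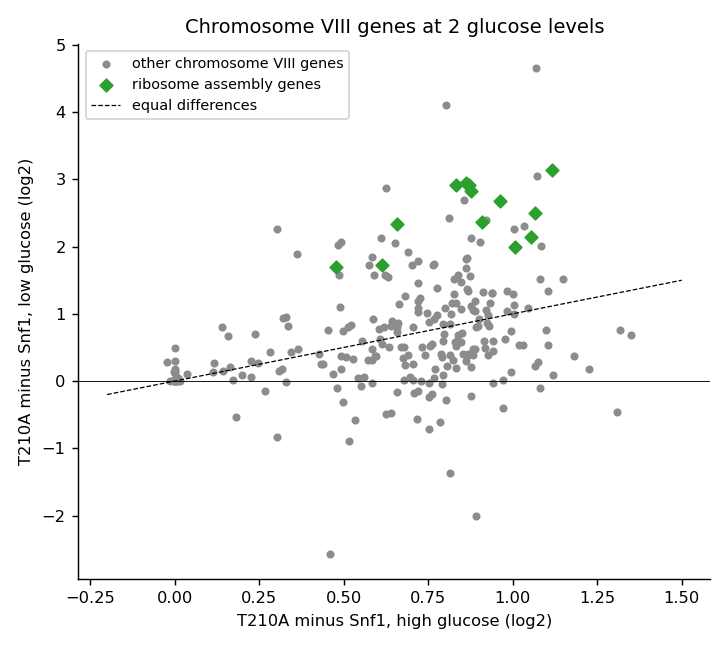
Difference T210A minus Snf1 (log2) at high glucose (x axis) and at low glucose (y axis) for the 261 chromosome VIII genes; diamonds are the 13 ribosome assembly genes and the dashed line marks equal differences. At high glucose the genes lie in a narrow band, and at low glucose they spread, with the diamonds between 1.70 and 3.14.

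Of the 47 genes called elsewhere at high glucose, 31 were called in the same direction at low glucose, 8 in the opposite direction and 8 not at all, where 55.5% of all genes elsewhere were called. HXT2 at low glucose read 9.90, 10.01 and 9.92 in Snf1 and 3.26, 3.20 and 3.45 in T210A (-6.64 ± 0.31; change -5.26 ± 0.43, adjusted p = 1.05e-06). SUL1 was further apart as well (-3.15 ± 0.08; change -2.33 ± 0.12). DIP5 turned from -1.01 to 0.60 (change 1.61 ± 0.20), while DDR48 went from 0.87 to -0.07 ± 0.08, which was not called (change -0.95 ± 0.11).

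Alpha1 against Snf1 at high glucose shares the 3 Snf1 arrays, and its values are set beside those of T210A without a test between them. The SNF1 probe set had a mean of 12.36 in Alpha1 and 7.17 in Snf1 (5.19 ± 0.13), and URA3 differed by 1.57 ± 0.07. What part this plays in the other Alpha1 differences was not tested. On chromosome VIII the Alpha1 median was -0.01 and 0 of 261 genes were called by limma, where 0.918% of all genes were. The Alpha1 differences of FSH1 and MIP6 were 0.48 ± 0.14 and 0.17 ± 0.07. Elsewhere HXT2 stood at -1.79 ± 0.31 in Alpha1 and -1.38 ± 0.31 in T210A, ATO2 at -1.88 ± 0.23 and -1.09 ± 0.23, BAP2 at -0.96 ± 0.17 and -0.81 ± 0.17, and SIT1 at -0.84 ± 0.19 and -0.94 ± 0.19. SUL1 was at 0.12 ± 0.08 in Alpha1, CYB2 at -0.01 ± 0.10, DDR48 at 0.00 ± 0.08 and ZUO1 at -0.02 ± 0.08, where T210A had -0.83, -0.77, 0.87 and 0.57.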

How the data were processed

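The deposited table holds log2 signals per probe set, which the authors made with RMA and the affy package, per the submitters' processing notes; the genome build is not given in the sources used here. It had 5716 probe sets on 18 arrays with values from 2.25 to 14.3 and array medians from 6.77 to 7.03, and no further scaling was applied. Of these, 5498 named 1 gene and 218 none; 12 symbols were updated and 47 genes had several probe sets. All columns matched a sample. RefSeq served only for names and gene order.

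Group means of the 6 groups were estimated together in limma 3.58.1 (R 4.3.3; 12 residual degrees of freedom, prior 1.18). The procedure was tested on simulated data. Those data had changes in randomly chosen genes and independent noise, without a chromosome-wide shift at high glucose or deviations shared between arrays. The labels call the arrays biological replicates without saying how cultures were related, so p-values measure the spread between these arrays, whose number limits precision. Same-numbered T210A and Snf1 arrays deviated together (r = 0.38, 0.71 and 0.51 at high glucose), so the numbers pair the arrays; the reported values come from the fit without a block, and the blocked values stand beside results they change. Members, lists and alternatives were chosen with earlier results of these data known. Genes were named as the 10 largest called on chromosome VIII, the 12 largest elsewhere in each direction (groups not overlapping), the 6 largest in each direction of the centred fit, 12 anchor genes, up to 4 called genes of each of 29 lists and list members on chromosome VIII. Alternatives comprised an intensity trend, the compared groups alone, replicate blocks, quantile normalization, centring, a signal filter, mean probe sets, no chromosome VIII genes, array weights, a minimum difference of 0.5 and omission of each array.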

Additional observations from a re-analysis of the deposited data

Results flagged for a closer look

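The strain difference itself differed between the glucose levels for 45 of the named genes, by the interaction term of limma (adjusted p under 0.05); the values are T210A minus Snf1 at low glucose less the same at high glucose, on the log2 scale.

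On chromosome VIII the difference was larger at low glucose for INM1 (3.58), DBP8 (2.02), SSF1 (1.44), RPF1 (1.09), THR1 (1.07), RRP4 (0.99), PRS3 (0.99), ERG7 (0.81), STE20 (0.48) and GPA1 (0.31). It was smaller, or lay on the other side, for ARO9 (-3.04), SSP1 (-1.76), SPO12 (-1.04), DUR3 (-1.03), WSC4 (-0.95), SOD2 (-0.86), PPE1 (-0.81), RPN10 (-0.78), PUT2 (-0.73), RPN1 (-0.69), FSH1 (-0.67), MRPL6 (-0.63), MIP6 (-0.56) and BZZ1 (-0.56). SPO12 read 8.77, 8.76 and 8.74 in Snf1 and 8.99, 8.90 and 8.93 in T210A at low glucose, so its gap closed as the Snf1 signal approached that of T210A.

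On other chromosomes the change was negative for HXT2 (-5.26), SUC2 (-5.07), JEN1 (-4.05), SUL1 (-2.33), MIG1 (-2.16), KNH1 (-2.10), HBN1 (-1.53), HXK1 (-1.25), CHO1 (-0.99), DDR48 (-0.95), TMA10 (-0.94), YLL066W-B (-0.78) and IMG2 (-0.68). SUC2 at low glucose read 11.98, 12.24 and 11.97 in Snf1 and 6.68, 7.12 and 6.54 in T210A. The change was positive for ADH5 (2.24), YLR152C (2.10), DIP5 (1.61), URA3 (1.25), GNP1 (0.95), ATO3 (0.95), SNF1 (0.84) and ZUO1 (0.30).

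Among the 218 probe sets without a gene name, which no comparison used, 5 were called higher in T210A at high glucose and 1 lower (2.75% called), the largest difference being 1.33.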

How the results depend on the processing

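The count of 228 called genes was 415 with a replicate block in the compared groups alone, 302 with a replicate block over all 18 arrays, 572 with array weights, 18 without chromosome VIII genes and 169 to 210 without single arrays. The 181 higher genes of chromosome VIII stayed within 141 and 219 under every alternative that kept them, with 0 lower (141 to 169 without single arrays). Elsewhere the 47 became 76 in the compared groups alone, 101 and 219 with the 2 replicate blocks, 18 without chromosome VIII genes (7 higher, 11 lower), 353 with array weights (70 higher, 283 lower), 21 at a minimum difference of 0.5 and 27 to 42 without single arrays. The fit that gave 18 adjusted over 5188 genes, without the many chromosome VIII calls in the adjustment. The HXT2 difference was -1.38 with and without those genes, while its adjusted p was 0.017 with them and 0.111 without. The causes of the other shifts were not tested. The centred count of 65 became 380 with the block in the compared groups alone, 31 with mean signals of at least 5, 14 without chromosome VIII genes, 631 with array weights and 45 to 57 without single arrays. The interaction count of 2153 became 3252 with array weights and 1885 to 1977 without single arrays. The median of chromosome VIII at high glucose was 0.77 after centring on the other chromosomes and 0.77 with the signal filter, and 0.71 to 0.76 without single arrays; at low glucose it was 0.52 after quantile normalization, 0.69 with the filter and 0.52 to 0.60 without single arrays.

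Elsewhere the split of higher and lower calls was 19 and 50 after quantile normalization and 18 and 27 after centring on the other chromosomes, against 13 and 34. Of the 47 genes only 37 and 27 were still called in these fits. Such centring ended 10 calls of named genes, among them GNP1 (adjusted p = 0.0528), TMA10 (0.0664), CUP1-1 (0.0846), ENO2 (0.102), URA3 (0.21) and IMG2 (0.388). Of 72 called genes among those named, 34 kept their call under every alternative (25 of 41 on chromosome VIII, 9 of 31 elsewhere), and no direction turned. The pairing moved calls beyond those in the report for DUR3 (adjusted p = 0.0507), YLR297W (0.0501), KNH1 (0.055), SDH6 (0.197), AQY2 (0.0712), YLL053C (0.0709), CWP2 (0.0986), INH1 (0.114) and WSC4 (0.053, and 0.0639 over all 18 arrays); it ended no other call of a named gene. Signals near 2.25 leave no room to read a lower value.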
